A study of Mus musculus with 73 samples.

Results

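The *Sox2* and *Klf2* promoters were driven by the same pairs of DNA fragments, and 11166 of the 110180 measured combinations of the series could be compared between them. A member is a combination with the same fragment, in the same orientation, in each of 2 positions, measured in both libraries with an activity above 0 in all replicates. The members were selected on these activities, so the relation between both promoters is described here and not tested. They make up 96.9% of the 11526 combinations of the *Sox2* library and 74.8% of the 14936 of the *Klf2* library. Of the shared combinations, 199 hold 2 control fragments (CC), 3986 hold 1 enhancer and 1 control (EC) and 6981 hold 2 enhancers (EE). Another 2 shared combinations were at 0 in a replicate.

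The cells of all groups were mouse embryonic stem cells of the line E14tg2a, cultured in 2i with LIF. Each of 8 plasmid libraries, which differ in the promoter, was transfected in 3 biological replicates, and RNA was collected 24 hours later. The compared groups are the cDNA of the *Sox2* and *Klf2* libraries, with *Lefty1*, *Otx2*, *Tbx3* and *Nanog* as libraries that took no part in the selection. The reporters are transiently transfected plasmids with the fragments downstream of the promoter, in a single cell line. The fragments thus act outside of their chromosomal surroundings. They were amplified with primers placed inside listed intervals of 450 bp, so positions and overlaps given here are those of the intervals, and the cloned parts are shorter. Activity is the ratio of barcode counts in cDNA over plasmid DNA, averaged over at least 5 barcodes. It is a mean over the culture, so fewer responding cells and less RNA per cell cannot be told apart. Barcode counts were not part of the table, and the depth behind each activity is unknown.

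An enhancer is a DNA element that binds transcription factors and raises transcription from a promoter. Promoters differ in how strongly they run by themselves and in how far an enhancer can raise them. *Sox2* encodes an HMG-box factor that maintains pluripotency together with OCT4, the product of *Pou5f1*. *Klf2* encodes a Krüppel-like zinc finger factor of naive pluripotent cells. The fragments come from the enhancer clusters of 9 loci, which include both genes. Each boost below is a log2 ratio, with the activity of a combination divided by the median activity of CC combinations in the same library.

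The listed *Klf2* promoter fragment covers 404 bp upstream of the start of *Klf2* in RefSeq and 46 bp from the start on. The listed *Sox2* fragment (chr3:34649971-34650420, GRCm38) has 426 of its 450 bp from the annotated start at 34649995 on. The forward primer of the *Sox2* promoter matched the plus strand from 34649995 to 34650031, so the amplified part begins at the start annotated in RefSeq. Around the RefSeq starts the fragments thus do not cover equivalent stretches. The paper selected its promoters to lie mostly upstream of the start, by transcript annotation and DNase hypersensitive sites. The start it used for *Sox2* was not given here and may differ from that of RefSeq. The 250 bases upstream of *Klf2* (chr8:72318812-72319061, plus strand, GRCm38.p6, sequence from RefSeq) are shown because this stretch ends at the start of the less responsive promoter. The GC boxes (GGGCGG, searched on both strands) are in capitals. They stand in the part of the stretch far from the start, and their role in the response was not tested.
Klf2 upstream: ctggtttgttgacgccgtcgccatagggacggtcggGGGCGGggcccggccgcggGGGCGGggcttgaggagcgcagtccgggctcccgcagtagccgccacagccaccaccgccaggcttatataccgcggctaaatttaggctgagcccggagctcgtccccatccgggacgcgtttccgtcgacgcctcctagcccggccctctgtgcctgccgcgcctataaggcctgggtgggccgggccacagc
This stretch has a GC content of 71.2% and 29 CpG dinucleotides. It holds 2 GC boxes, and 32.7% of 32851 windows upstream of RefSeq starts hold a GC box in any number. TATAAA and CCAAT, found in 12.4% and 33.8% of the windows, were not among its letters on either strand. No mismatch was allowed in the search. TATAAGG, similar to TATAAA, stands near the end of the stretch, close to the start, and its role was not tested. E-box, octamer, SOX, KLF, ESRRB, STAT, TEAD, AP-1 and ETS motifs were searched too and had 0 matches. Each of those occurs in 2.86% to 7.02% of the windows.

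The fragments farthest from the common line, defined below, are identified by their genomic primers, which mark the ends of each cloned element. The 3 highest above the line are Pou5f1_E084 (chr17:35509279-35509728), Sox2_E179 (chr3:34756564-34757013) and Nanog_E074 (chr6:122702830-122703279).
Pou5f1_E084 forward: gattagacgcttgtagcttgaactgtc
Pou5f1_E084 reverse: ggagagagcctgattgattagcaaatg
Sox2_E179 forward: aggtgaccttgaaatgaccctcttatc
Sox2_E179 reverse: aacagataagcaaccacagagaggag
Nanog_E074 forward: ccctgtaccaaacctttgtagaacttg
Nanog_E074 reverse: ggatacaaagcccagcaaactacc
Pou5f1_E084 lies within *Pou5f1*, 472 bp from an annotated start of that gene. Sox2_E179 overlaps no RefSeq gene, and the nearest annotated start, 15062 bp away, is that of Gm38509. Nanog_E074 lies 4210 bp from the start of *Nanog*, outside of the gene.

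The 3 lowest below the line are Otx2_E114 (chr14:48664703-48665152), Otx2_E115 (chr14:48666311-48666760) and Lefty1_E095 (chr1:180936711-180937160).
Otx2_E114 forward: tctccacagcgagcttagataataaac
Otx2_E115 forward: ctgaaccacactagccacagtc
Otx2_E115 reverse: aacaaagataataaggtggacgcttcc
Lefty1_E095 forward: gcactgcccttatcgattctaggtatag
Lefty1_E095 reverse: tgtgtgagctccaggttccc
Otx2_E114 spans an annotated start of *Otx2*, at 48665109 on the minus strand. The 43 bases of its listed interval upstream of that start (chr14:48665110-48665152, minus strand, GRCm38.p6) are printed because no other named fragment reaches across a start, with the match of the reverse primer in capitals.
Otx2_E114 upstream: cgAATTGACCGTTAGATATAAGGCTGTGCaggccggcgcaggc
Otx2_E115 lies within *Otx2*, 748 bp from an annotated start. Lefty1_E095 overlaps *Lefty1* and the long noncoding RNA gene Gm39715. The coordinates are those of the study's fragment list in mm10.

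The *Sox2* promoter had the lower baseline and the larger response. The median activity of CC combinations was 0.171 for *Sox2* and 0.394 for *Klf2*, with SDs of 0.02 and 0.11 log2 units over 3 replicates. Over the shared combinations the *Sox2* boost spanned 4.36 log2 units between the 5th and the 95th percentile, and the *Klf2* boost 2.33. EC combinations had median boosts of 1.69, 1.61 and 1.76 in the 3 *Sox2* replicates. The same combinations had median boosts of 0.76, 0.80 and 0.81 in the 3 *Klf2* replicates. In EE combinations the medians were 3.55, 3.29 and 3.39 for *Sox2*. They were 1.36, 1.48 and 1.39 for *Klf2*, so that the replicates of both promoters did not overlap in either type of combination.

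Boosts of *Sox2* on those of *Klf2* followed a line with a slope of 1.69 and an intercept of 0.69. Pearson's R was 0.837 and Spearman's rho 0.851 across 11166 combinations, which share fragments and libraries and are not independent. Same-numbered replicates gave a slope of 1.60 ± 0.07 (SD, n = 3) and an R of 0.80 ± 0.05 (SD, n = 3). Over all 9 pairings of replicates the slope lay between 1.47 and 1.68, always above 1. Within a promoter, replicates correlated with R from 0.929 to 0.960 for *Sox2* and from 0.900 to 0.927 for *Klf2*. The correlation between the promoters was thus lower than that between replicates of either of them.

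The label of the least similar pair of developmental promoters holds only in part. Among the 21 pairs of the 7 developmental promoters, R ranged from 0.817 to 0.974, and *Sox2* with *Klf2* was the 4th lowest. The 3 lower pairs all include *Fgf5*, whose library shares fewer combinations with the others. Those are *Klf2* with *Fgf5* at 0.817 (8362 combinations), *Otx2* with *Fgf5* at 0.817 (8373) and *Nanog* with *Fgf5* at 0.823 (8501). Over the 7645 combinations measured with all 8 promoters, a set added after the data were seen, *Sox2* with *Klf2* had 0.835. There *Otx2* with *Fgf5* at 0.828 and *Klf2* with *Fgf5* at 0.830 were still lower, and *Nanog* with *Fgf5* had 0.837. *Fgf5* reached 0.955 with *Sox2*, 0.957 with *Lefty1* and 0.952 with *Tbx3* in this set. Among the 15 pairs without *Fgf5*, *Sox2* with *Klf2* was the lowest, next to *Sox2* with *Otx2*, which also rounds to 0.837. The pair *Sox2* and *Lefty1* reached 0.956, and *Klf2* and *Nanog* 0.933. The order of the lowest pairs rests on differences smaller than the spread between replicates.

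The cloud of combinations was not quite straight. The combinations were sorted by *Klf2* boost into 10 bins of equal size. The median residual from the line was 0.06 in bin 1, -0.26 in bins 3 and 4, 0.38 in bin 8 and -0.15 in bin 10. In bin 10 the median *Sox2* boost was 4.52 at a median *Klf2* boost of 2.3. A 3rd-degree polynomial lowered the residual SD from 0.79 to 0.78. CC combinations lay below the line, with a median residual of -0.73, EC combinations at -0.19 and EE combinations at 0.14. Lines within a type had slopes of 0.73 for CC, 1.64 for EC and 1.53 for EE.

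**Figure D1:**
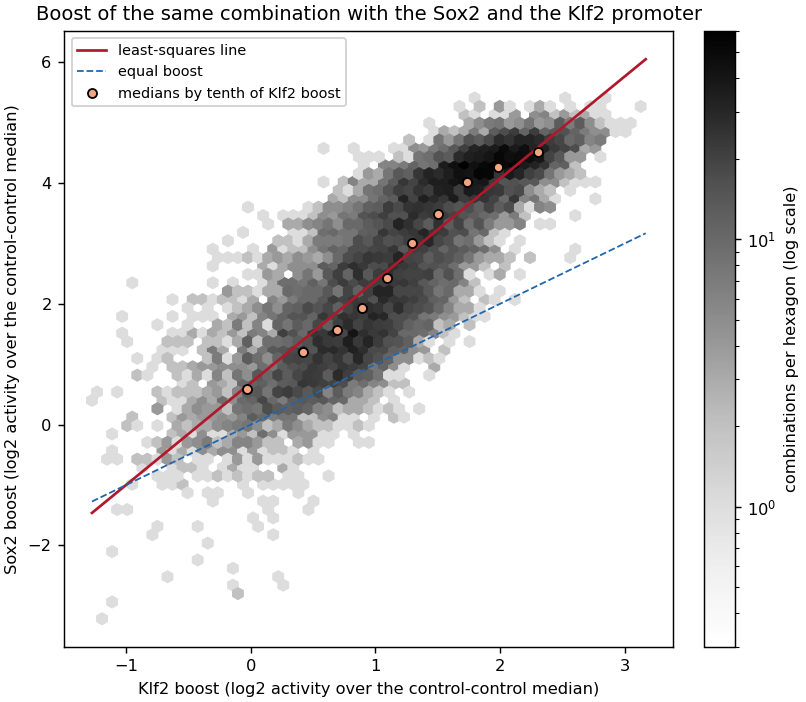
Boost of each of the 11166 shared combinations with the Klf2 promoter (x axis) and the Sox2 promoter (y axis), both in log2 units over the control-control median, with the number of combinations per hexagon as grey level on a log scale. The solid line is the least-squares line with a slope of 1.69, the dashed line marks equal boosts and the dots are medians of 10 bins of equal size by Klf2 boost, the highest at 2.3 and 4.52.

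Single combinations left the line by more than their replicates varied. A combination was counted as off the line when its 3 *Sox2* boosts all lay above, or all below, its 3 *Klf2* boosts carried through the line. Of 11166 combinations, 3198 lay above in this way, which is 28.6%, and 2885 below, which is 25.8%. Residuals above 1 log2 unit were found in 1092 combinations and residuals below -1 in 1233. The spread between replicates accounted for 14.1% of the residual variance. An additive fit with 1 coefficient per fragment accounted for 60.9%, so most of the residual could be written as a sum of what each fragment brings. Residuals of the 3 same-numbered replicate pairs correlated with R between 0.690 and 0.769 across combinations.

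The combination farthest above the line whose replicates did not overlap was Pou5f1_E084 in minus orientation before Fgf5_E040 in plus orientation. Its *Sox2* boosts were 2.00, 1.91 and 3.29, while its *Klf2* boosts were -1.30, -0.48 and -1.12. The next was Sox2_E180 with a random control, with *Sox2* boosts of 3.67, 3.48 and 3.71 and *Klf2* boosts of -0.42, 0.11 and 0.17. Klf2_E058 with Pou5f1_E078 reached *Sox2* boosts of 4.44, 4.74 and 4.42 at *Klf2* boosts of 0.75, 0.24 and 0.63. In all 3 combinations every *Sox2* boost exceeded every *Klf2* boost by more than 1 log2 unit, and the other two of the 5 highest hold Lefty1_E093 and Sox2_E179 beside a control.

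Of the 5 lowest combinations, 4 hold 2 controls, and 3 of those hold the control E6-shuffled3. The other one is Nodal_E162 with a control, with *Sox2* boosts of -2.61, -0.71 and -4.52 and *Klf2* boosts of 0.24, 0.48 and -0.07. Its *Sox2* values spread over several log2 units. The lowest pair of controls had *Sox2* boosts of -1.70, -2.76 and -4.05 at *Klf2* boosts of -0.22, -0.26 and 0.09. The far lower end is therefore held by weak combinations with widely scattered *Sox2* activities.

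The residual of an enhancer is the median over its shared combinations in either position, which numbered 22 to 579 for the 58 enhancers, all above the required 10. Klf2_E046 and Fgf5_E038 were measured in EE combinations only. Residuals ranged from -0.81 to 0.92, with 27 enhancers above and 31 below the line. The 3 *Sox2* replicates lay above the 3 *Klf2* replicates carried through the line for 22 enhancers, which is 37.9%, and below for 21, which is 36.2%. The remaining 15 overlapped. The enhancer residuals of same-numbered replicate pairs correlated with R between 0.959 and 0.978 across enhancers, and the median SD of a residual over these pairs was 0.07.

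The enhancers with the 6 highest residuals raised *Sox2* far more than *Klf2*. Such a gap is not particular to them. The difference of the single-enhancer boosts was 1.51 log2 units for Pou5f1_E084, which had the highest residual. Near the line it was 2.23 for Pou5f1_E081 and 2.13 for Nanog_E073, but 0.60 for Otx2_E110. Sox2_E179, from the *Sox2* cluster, had single-enhancer boosts, the medians over EC combinations, of 3.24, 2.92 and 3.04 with *Sox2* and of 0.78, 0.89 and 0.81 with *Klf2*. This is an 8.34-fold rise over baseline with *Sox2* and a 1.76-fold rise with *Klf2*. Its residual was 0.88 ± 0.07 (SD, n = 3). Klf2_E058, which lies 2536 bp from the *Klf2* start, had boosts of 4.68, 4.45 and 4.48 with *Sox2*, a 23.2-fold rise. With *Klf2*, the promoter of its own locus, its boosts were 1.87, 2.03 and 1.77, a 3.75-fold rise, and its residual was 0.70 ± 0.12 (SD, n = 3). The enhancer next to *Klf2* was thus among the strongest for both promoters and still lay above the line.

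Pou5f1_E084 had the highest residual, 0.92 ± 0.05 (SD, n = 3), at moderate strength. Its boosts were 1.61, 1.44 and 2.04 with *Sox2* and 0.01, -0.02 and 0.28 with *Klf2*, so *Klf2* was close to its baseline in all replicates. Its residual was 0.53 in plus and 0.85 in minus orientation in position 1, and 1.05 and 1.36 in position 2, above the line in all 4. Nanog_E074 had boosts of 4.14, 4.04 and 3.99 with *Sox2* and of 1.44, 1.79 and 1.46 with *Klf2*. Sox2_E183 had boosts of 3.39, 3.12 and 3.40 with *Sox2* and of 1.11, 1.24 and 1.06 with *Klf2*. In each of these enhancers every *Sox2* replicate exceeded every *Klf2* replicate by more than 1 log2 unit.

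Lefty1_E093 was the one enhancer of the 6 whose replicates overlapped after the line was applied. Its boosts were 2.94, 2.03 and 2.17 with *Sox2* and 0.97, 0.51 and 0.70 with *Klf2*, with replicate 1 the highest of both. Replicate 1 was the highest with *Lefty1*, *Otx2*, *Tbx3* and *Nanog* too. Its residual ranged from -0.09 to 1.32 over the 9 pairings of replicates, but had an SD of 0.08 over the same-numbered ones.

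Of the enhancers with the 6 lowest residuals, Tbx3_E203 raised *Sox2* 3.15-fold and *Klf2* 2.13-fold, and the rises of the other five differed less between the promoters. Otx2_E114, across the annotated *Otx2* start, had boosts of 0.75, 0.79 and 0.87 with *Sox2* and of 0.66, 0.67 and 0.77 with *Klf2*. These are 1.70-fold and 1.69-fold rises, and the residual was -0.81 ± 0.12 (SD, n = 3). Otx2_E115 had boosts of 0.81, 0.98 and 0.97 with *Sox2* and of 0.74, 0.79 and 0.78 with *Klf2*. Its residual was -0.77 ± 0.12 (SD, n = 3). Both fragments of the *Otx2* gene, which encodes a homeobox factor, thus gave nearly the same boost to a promoter of low and one of high baseline.

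Lefty1_E095, from the locus of the Nodal antagonist *Lefty1*, had boosts of 0.52, 0.70 and 0.56 with *Sox2* and of 0.53, 0.48 and 0.68 with *Klf2*, which overlap. Nodal_E162, from the locus of the TGF-beta family ligand *Nodal*, had boosts of 0.26, 0.36 and 0.36 with *Sox2*. With *Klf2* they were 0.26, 0.27 and 0.40, which overlap too. Tbx3_E203 was stronger than the other five, with 1.80, 1.74 and 1.63 for *Sox2* and 1.12, 1.14 and 1.08 for *Klf2*. Tbx3_E206, from the same locus of a T-box factor, had 0.73, 0.94 and 0.85 for *Sox2* and 0.55, 0.67 and 0.70 for *Klf2*. In both Tbx3 fragments the *Sox2* replicates were all the higher ones, by less than the line gives for their *Klf2* boosts.

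**Figure D2:**
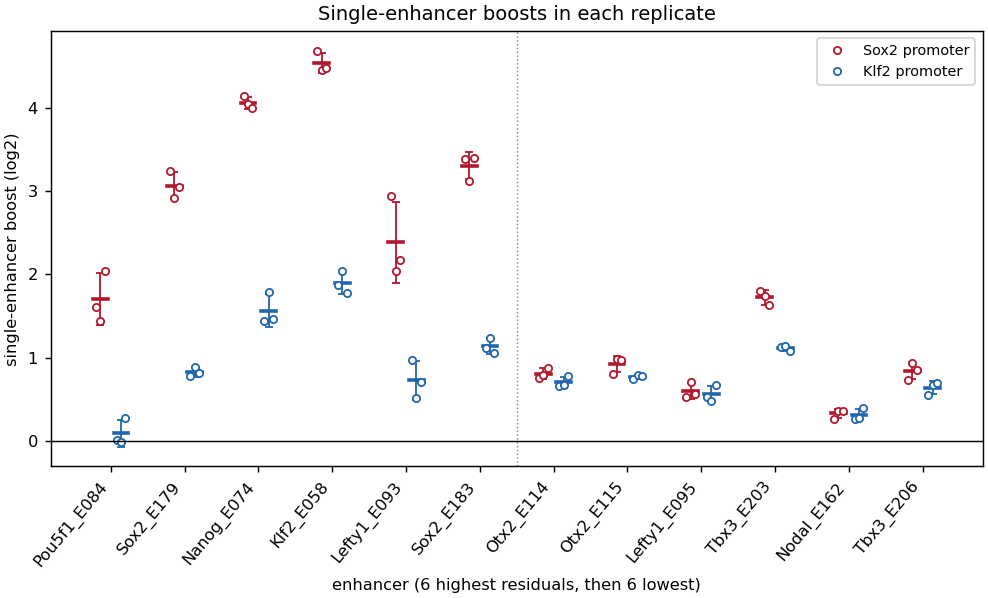
Single-enhancer boosts in log2 units (y axis) for the Sox2 and Klf2 promoters, with the 6 enhancers of highest residual on the left and the 6 of lowest residual on the right. Open dots are the 3 replicates, and the horizontal and vertical bars are their mean and SD. The promoters are far apart left of the dotted line, as for Klf2_E058 with 4.68, 4.45 and 4.48 against 1.87, 2.03 and 1.77, and right of it the widest gap is that of Tbx3_E203, with 1.80, 1.74 and 1.63 against 1.12, 1.14 and 1.08.

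The limits of both groups are not gaps in the series of enhancers. The last of the 6 highest had a residual of 0.64 and the next enhancer, Fgf5_E040, 0.56. The last of the 6 lowest had -0.47 and the next, Pou5f1_E083, -0.44. Of the 3 strongest enhancers with *Klf2*, Klf2_E058 was among the 6 highest residuals, and the other two lay closer to the line. Pou5f1_E081 had boosts of 2.13, 2.35 and 2.12 with *Klf2* and 4.56, 4.40 and 4.49 with *Sox2*, and a residual of 0.17. Nanog_E073 had 2.06, 2.15 and 1.80 with *Klf2* and 4.27, 3.93 and 4.14 with *Sox2*, and a residual of 0.13.

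Besides Pou5f1_E084, the weakest with *Klf2* were Pou5f1_E079 and Otx2_E110. Pou5f1_E079 had boosts of 0.04, 0.14 and 0.17 with *Klf2* and 0.50, 0.59 and 0.64 with *Sox2*, with a residual of -0.22 that was -0.13 without *Sox2* replicate 3. Otx2_E110 had -0.13, -0.30 and 0.03 with *Klf2* and 0.52, 0.21 and 1.00 with *Sox2*, with a residual of 0.13 that lay between -0.37 and 0.55 over the 9 pairings. With *Sox2* the replicates of Pou5f1_E079 and Otx2_E110 overlapped, while those of Pou5f1_E084, at 1.61, 1.44 and 2.04, were all higher.

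**Figure D3:**
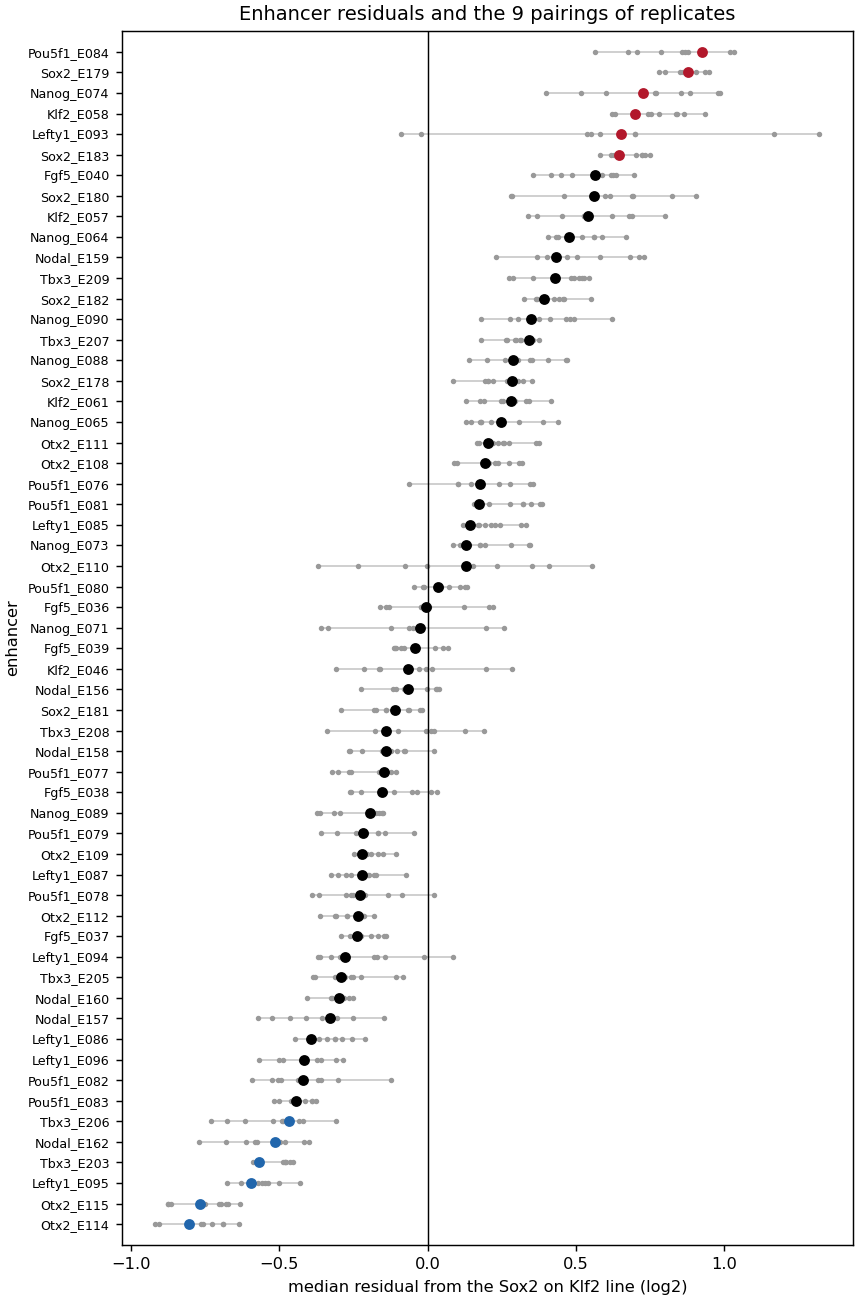
Median residual of each of the 58 enhancers from the Sox2 on Klf2 line in log2 units (x axis), sorted, with the 6 highest in red and the 6 lowest in blue. Small grey dots are the 9 pairings of a Sox2 with a Klf2 replicate, and the grey line is their range. The residuals run from -0.81 to 0.92, and Lefty1_E093 has the widest range among the 6 highest, from -0.09 to 1.32.

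Enhancers of the *Sox2* and *Klf2* loci both lay mostly above the line. Of the 6 fragments of the *Sox2* cluster 5 lay above, with a median residual of 0.48. Sox2_E180 had boosts of 4.18, 4.26 and 4.12 with *Sox2* and of 1.59, 1.96 and 1.5 with *Klf2*, with a residual of 0.56. The residuals of Sox2_E182 and Sox2_E178 were 0.39 and 0.28. That of Sox2_E178 was 0.35 over its EE and -0.01 over its EC combinations. Sox2_E181, whose interval shares 63 bp with that of Sox2_E182, lay below at -0.11, and at -0.05 without *Klf2* replicate 1. Its residual was 0.22 in plus and -0.45 in minus orientation, and 0.03 over its EE and -0.47 over its EC combinations.

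Of the 4 fragments of the *Klf2* cluster 3 lay above, with a median of 0.41. Klf2_E057 had boosts of 2.81, 2.24 and 2.51 with *Sox2* and of 0.85, 0.73 and 0.60 with *Klf2*, with a residual of 0.54. The residual of Klf2_E061 was 0.28 and that of Klf2_E046, in 32 EE combinations, was -0.07 and overlapped. The EE combinations of 2 fragments of the *Klf2* locus had a median residual of 1.07 in 16 combinations, and those of the *Sox2* locus 0.84 in 93. Fragments of the *Klf2* locus thus did not favour the *Klf2* promoter in these residuals.

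The other loci had median residuals between -0.28 and 0.27. In the *Nanog* cluster 6 of 8 enhancers lay above, with a median of 0.27. Below the line were 5 of 7 enhancers of *Lefty1* with a median of -0.28, 4 of 7 of *Otx2* with -0.22, 5 of 6 of *Nodal* with -0.22 and 4 of 6 of *Tbx3* with -0.22. In *Pou5f1*, 5 of 9 lay below with a median of -0.15, and in *Fgf5* 4 of 5 with -0.04. *Pou5f1* held the widest range, from -0.44 to 0.92. Where 2 fragments of a locus overlap, their residuals were close in some cases, such as Pou5f1_E078 and Pou5f1_E079 with 292 bp in common at -0.23 and -0.22. They were far apart in others, such as Nodal_E159 and Nodal_E160 with 100 bp in common at 0.43 and -0.30. Nanog_E073 and Nanog_E074, with 66 bp in common, had 0.13 and 0.73.

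The residual went with the fragment in most settings. Across 58 enhancers the residual in position 1 correlated with that in position 2 at R = 0.836, and 48 enhancers had the same sign in both. For plus against minus orientation R was 0.760, with the same sign in 43. Across the 53 enhancers with at least 10 EC combinations, the residual next to a control correlated with that next to another enhancer at R = 0.951, although EC residuals were lower by a median of 0.35. These points share combinations and libraries. The 20 control fragments had residuals between -0.62 and 0.12 with an SD of 0.18. Over the 58 enhancers the SD was 0.41. Lefty1_E095, Tbx3_E203, Nodal_E162 and Tbx3_E206, at -0.60, -0.57, -0.52 and -0.47, lay within the range of the controls. Otx2_E114 and Otx2_E115, at -0.81 and -0.77, lay below it. The lowest controls were E30-shuffled3 at -0.62 and E6-shuffled3 at -0.44. CC combinations also lay below the line, with a median residual of -0.73. A residual within the range of the controls does not by itself set an enhancer apart from them.

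Pairs of enhancers carried the residuals of both partners. The single-enhancer residual, taken from EC combinations and centred on its median over enhancers, was added up for both members of 6599 EE combinations. The sum correlated with the residual of the EE combination at R = 0.764, with a slope of 0.68. In 1659 EE combinations whose 2 enhancers both lay above, the median residual was 0.82, 0.64 and 0.80 in the 3 same-numbered replicate pairs. In 1523 whose enhancers both lay below it was -0.69, -0.58 and -0.71, and in 3219 mixed ones 0.21, 0.15 and 0.25. The 3 groups did not overlap over replicates. EE and EC combinations were measured in the same libraries, so these values describe the members and test nothing.

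**Figure D4:**
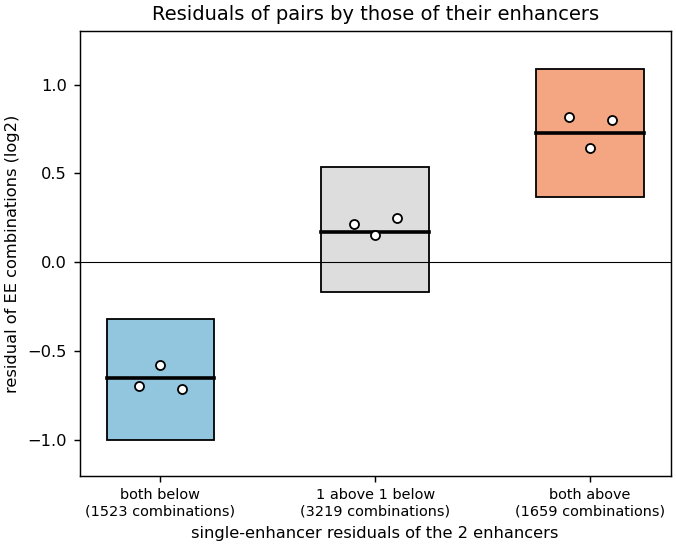
Residuals of EE combinations from the Sox2 on Klf2 line in log2 units (y axis), grouped by whether the EC residuals of the 2 enhancers lie above or below their median over enhancers (x axis). Boxes span the quartiles, black lines are medians and open dots are medians of the 3 same-numbered replicate pairs, which lie between -0.71 and -0.58 where both enhancers are below and between 0.64 and 0.82 where both are above.

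The same enhancers were then examined with 4 promoters that took no part in the choice. *Lefty1*, with a baseline of 0.087, was set against *Otx2*, with 0.408, and *Tbx3*, with 0.112, against *Nanog*, with 0.324. Each pair thus holds a promoter of low and one of high baseline, and shares no sample with the *Sox2* and *Klf2* libraries or with the other pair. The slopes were 1.96 for *Lefty1* on *Otx2* over 13675 combinations and 1.64 for *Tbx3* on *Nanog* over 13242. The residual of each of 57 enhancers was tested by limma with Benjamini-Hochberg adjustment, 3 replicates against 3. On the *Lefty1* and *Otx2* line 16 enhancers lay above at an adjusted p under 0.05, which is 28.1%, and 20 below, which is 35.1%. For *Tbx3* and *Nanog* 14 lay above, which is 24.6%, and 17 below, which is 29.8%. In simulated data, described below, the *Lefty1* and *Otx2* test also called 6 of 45 enhancers without a shift. The *Tbx3* and *Nanog* test called 0 of 45. The counts for *Lefty1* and *Otx2* may therefore hold more false calls than the threshold implies. With a reduced major axis line, 12 lay above and 14 below for *Lefty1* and *Otx2*, and 11 and 8 for *Tbx3* and *Nanog*.

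All 6 enhancers highest above the *Sox2* and *Klf2* line lay above the *Lefty1* and *Otx2* line, and all 6 lowest lay below it, each past the threshold of limma. The residuals were 0.58 to 1.13 for the former and -0.77 to -0.54 for the latter. Pou5f1_E084 had a residual of 1.13 ± 0.10 (SE) with a limma adjusted p of 6.24e-05, and Otx2_E114 of -0.68 ± 0.07 (SE) with 6.51e-05. Pou5f1_E084 had boosts of 0.94, 1.22 and 1.41 with *Lefty1* and of -0.19, -0.27 and 0.26 with *Otx2*. Otx2_E114 had boosts of 0.90, 1.00 and 1.05 with *Lefty1* and of 0.68, 0.62 and 0.79 with *Otx2*, the promoter of its own locus. Its values with *Lefty1* exceeded those with *Otx2* in all replicates, by less than the line gives. The call of Lefty1_E093 was lost without *Lefty1* replicate 1, with an adjusted p of 0.0563 by limma, and without *Otx2* replicate 3, with 0.0717.

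On the *Tbx3* and *Nanog* line 5 of the 6 highest and all 6 lowest passed the threshold on the same side. Lefty1_E093, the exception, had a residual of 0.30 ± 0.25 (SE) and an adjusted p of 0.318 by limma. These tests did not pair the replicates. Lefty1_E093 passed the threshold when same-numbered replicates were paired, in a fit that used a single variance for all enhancers. Pou5f1_E084 had a residual of 0.79 ± 0.12 (SE), with boosts of 1.15, 1.02 and 1.15 with *Tbx3* and of -0.08, 0.15 and 0.11 with *Nanog*. Tbx3_E203 had -0.60 ± 0.08 (SE), with boosts of 2.10, 1.79 and 1.45 with *Tbx3* and of 1.38, 1.45 and 1.35 with *Nanog*. Nodal_E162 had -0.34 ± 0.11 (SE) with an adjusted p of 0.022 by limma. Its call was lost without *Tbx3* replicate 1, *Tbx3* replicate 2 or *Nanog* replicate 3, with adjusted p of 0.0640 to 0.0705.

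Over all enhancers, those above the *Sox2* and *Klf2* line were called above the other lines or not at all. Of 27 above it, 16 were called above and 0 below for *Lefty1* and *Otx2*, and at an unadjusted p under 0.05 the counts by limma were 16 and 0. For *Tbx3* and *Nanog* 14 were called above and 0 below, and 14 and 1 without adjustment. Of 30 enhancers below it, 20 were called below and 0 above for *Lefty1* and *Otx2*, and 17 below and 0 above for *Tbx3* and *Nanog*. Without adjustment these were 20 and 0, and 18 and 0. Across 57 enhancers the residuals from the *Sox2* and *Klf2* line correlated with those of the other lines at R = 0.824 and 0.800. The points share the DNA fragments and the design of the libraries.

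Some enhancers above the *Sox2* and *Klf2* line did not pass the test on the others. Sox2_E182, at 0.39, had residuals of -0.01 ± 0.07 and -0.09 ± 0.08 (SE) on the lines of *Lefty1* on *Otx2* and *Tbx3* on *Nanog*, with limma adjusted p of 0.889 and 0.325. Sox2_E178, at 0.28, had -0.17 ± 0.10 and -0.24 ± 0.11 (SE). Klf2_E061, at 0.28, had -0.15 ± 0.09 and -0.06 ± 0.09 (SE). The adjusted p of these by limma were 0.172 and 0.0847 for Sox2_E178 and 0.201 and 0.580 for Klf2_E061. Of the *Sox2* locus, Sox2_E179, Sox2_E180 and Sox2_E183 were called above both other lines. The difference between lines was not tested, since the *Sox2* and *Klf2* values chose the enhancers.

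**Figure D5:**
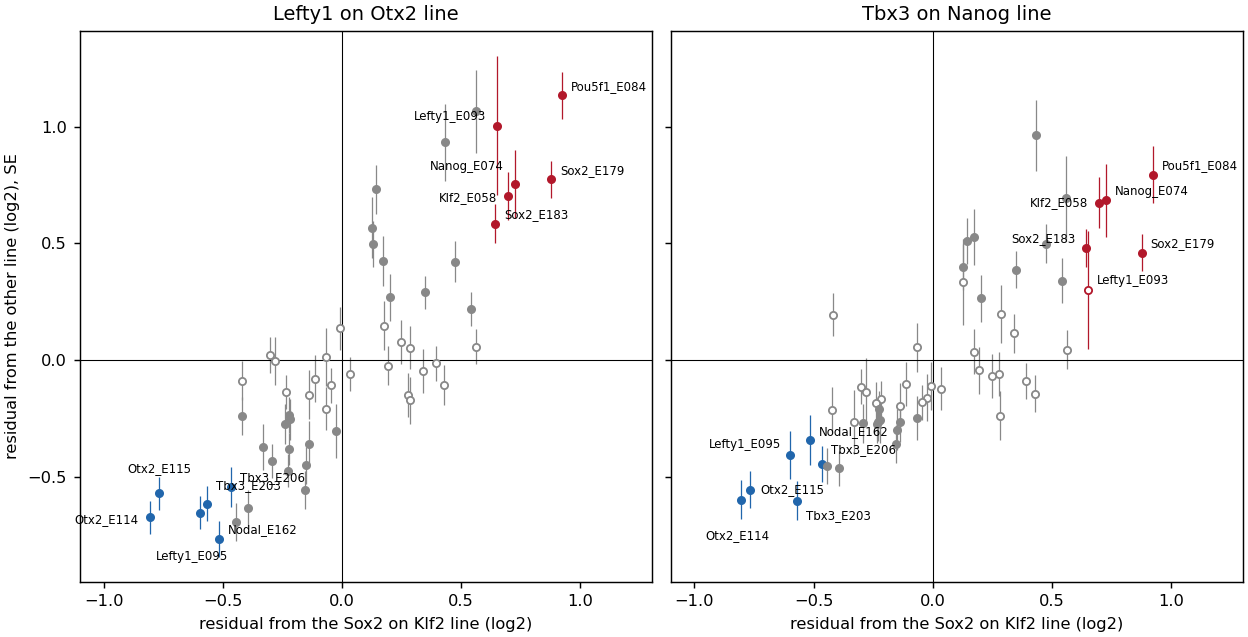
Residual of 57 enhancers from the Sox2 on Klf2 line (x axis) against their residual from the Lefty1 on Otx2 line (left) and the Tbx3 on Nanog line (right), in log2 units with SE bars of limma. Filled dots have an adjusted p under 0.05, and the 6 highest and 6 lowest enhancers are red and blue. The red dots lie at 0.58 or above on the left and the blue dots at -0.34 or below on the right.

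With the promoter of the housekeeping gene *Ap1m1*, which encodes a clathrin adaptor subunit, the 6 lowest enhancers had single-enhancer boosts of 0.40 to 0.92 with a median of 0.56. The 6 highest had -0.59 to 0.59 with a median of 0.30, and the other 45 enhancers had a median of 0.44. The ranges overlap. Otx2_E114 had boosts of 0.65, 0.76 and 0.62 with *Ap1m1*, close to those with *Klf2* and *Sox2*. Pou5f1_E084 had -0.62, -0.51 and -0.46, below the baseline of *Ap1m1*. Across 53 enhancers R between the residual and the *Ap1m1* boost was -0.301, a weak relation over points that share libraries. The residual also went with enhancer strength on the promoters of low baseline. R was 0.659 for the single-enhancer boost of *Sox2*, 0.541 for *Lefty1* and 0.517 for *Tbx3*. For *Klf2*, *Nanog* and *Otx2* it was 0.318, 0.327 and 0.283. Residuals are taken from *Sox2* boosts, so the value for *Sox2* is partly built in.

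All 6 lowest enhancers overlap a RefSeq gene, as do 2 of the 6 highest and 22 of all 58. The median residual was -0.24 for these 22 and 0.13 for the 36 that overlap none. On the other lines the medians of the same groups were -0.11 against -0.02 for *Lefty1* and *Otx2* and -0.14 against -0.08 for *Tbx3* and *Nanog*. The Ap1m1 boost had a median of 0.59 in the former and 0.36 in the latter. The groups were formed after the values were seen, and no test was made. A few fragments held many of the far combinations. Sox2_E179 was in 18.6% of the 1045 combinations above 1 log2 unit whose replicates did not overlap, against 4.31% of all members, and Pou5f1_E084 in 15.3% against 3.25%. Otx2_E115 was in 19.0% of the 1153 such combinations below -1, against 5.15%, and Otx2_E114 in 11.4% against 3.20%. The residuals of the enhancers themselves are medians over these combinations. The full fragment sequences were not used here, so motifs within the enhancers were not analysed.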

How the data were processed

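Activities of E14tg2a cells were taken from the deposited table of the authors, which gives the ratio of cDNA over plasmid DNA barcode counts, each divided by its sample total, as a mean over at least 5 barcodes with at least 8 plasmid counts. The authors assigned barcodes with Bowtie2 2.3.4 and clustered them with Starcode 1.1 (fragments in mm10), and 2 sequencing runs make up 1 replicate. Columns of the authors' own boost and expected activities were not used.

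Boosts were calculated from the 3 replicate columns as log2 of the geometric mean over the median of CC combinations above 0, with no pseudocount. The line is ordinary least squares. Per replicate, boosts are relative to the CC median of that replicate, and enhancer values were centred on their mean over enhancers before replicates were compared. The enhancers of the 6 highest and 6 lowest residuals, of the *Sox2* and *Klf2* loci and with the 3 highest and 3 lowest *Klf2* boosts, and the 5 highest and 5 lowest combinations with replicates that do not overlap, are named in the text. The members and lists were chosen with earlier results of these data known.

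For the tests, the second promoter of a pair was carried through the line, and both were compared by limma 3.58.1 in R 4.3.3 (two-sided, Benjamini-Hochberg at 5%). Python 3.11.15, numpy 2.4.6, pandas 2.3.3 and scipy 1.17.1 were used otherwise. Replicates of a library were transfected on different days. Deviations of same-numbered *Sox2* and *Klf2* replicates from their means correlated with R = 0.142, 0.154 and 0.107. Those of different numbers had R from -0.124 to -0.003. Same-numbered replicates were therefore also treated as pairs. Neither the labels nor the paper state that they were transfected together.

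The calculation was tested on simulated data. For *Lefty1* on *Otx2*, all 6 enhancers with a shift of 0.5 log2 units and 5 of 6 with 0.2 were called, as were 6 of 45 without a shift, and a slope of 1.96 was fitted as 1.86. For *Tbx3* on *Nanog*, all 6 and all 6 were called and 0 of 45 without a shift, and a slope of 1.64 was fitted as 1.61. Least squares thus gave too flat a line. In this simulation the share of false calls for *Lefty1* on *Otx2* was above the rate set for the Benjamini-Hochberg adjustment. A reduced major axis line was among the alternatives, with other sets of combinations, averaging, filters, polynomials and left-out replicates.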

Additional observations from a re-analysis of the deposited data

Results flagged for a closer look

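Pou5f1_E084 moved *Sox2* and *Ap1m1* in opposite directions in all replicates. Its single-enhancer boosts were 1.61, 1.44 and 2.04 with *Sox2* and -0.62, -0.51 and -0.46 with *Ap1m1*, and the difference of the boosts was 2.23 log2 units. This difference was not tested. With 3 replicates in each group, single samples were not examined as outliers.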

How the results depend on the processing

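The slope of 1.69 became 1.53 with EE combinations only, 2.02 with the reduced major axis line and 1.60 with the replicate block, in which same-numbered replicates were paired. It lay between 1.64 and 1.72 when 1 replicate was left out. The correlation stayed within the spread between replicates in all settings, 0.794 with EE combinations only, 0.820 to 0.843 with 1 replicate left out and 0.835 over the combinations measured with all 8 promoters, a setting added after the data were seen. The number of enhancers off the line was 43, and 34 to 52 otherwise. The additive fit accounted for 60.9% of the residual variance, 69.3% with EE combinations only, 54.0% with the reduced major axis line and 52.9% with the replicate block, and 56.8% to 61.4% with 1 replicate left out. All alternatives for this share were chosen after the data were seen.

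For the 6 highest and 6 lowest enhancers, no residual from the *Sox2* and *Klf2* line changed sign in 204 recalculations, which include the 3rd-degree polynomial added after the data were seen. Among the other named enhancers 11 of 186 did. Klf2_E046 gave -0.22 to 0.10 with 1 replicate left out, above 0 without *Sox2* replicate 1 and without *Klf2* replicate 3, and 0.034 as additive coefficient. Sox2_E181 gave 0.037 in position 2, Pou5f1_E079 0.22 in position 2 and 0.055 as additive coefficient. Pou5f1_E081 and Nanog_E073 both gave -0.17 with the reduced major axis line. Otx2_E110 gave -0.022 with EE combinations only and -0.024 to 0.30 with 1 replicate left out, below 0 without *Klf2* replicate 2 and without *Sox2* replicate 3. Sox2_E178 kept its sign but fell from 0.28 to 0.17 with EE combinations only, 0.14 with EC combinations only and 0.18 with the filter on low activities. Sox2_E181 gave -0.32 with EC combinations only. The cause was not tested.

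By limma, 36 enhancers lay off the *Lefty1* on *Otx2* line, 41 with the replicate block, 26 (12 above, 14 below) with the reduced major axis line and 30 to 37 with 1 replicate left out. Off the *Tbx3* on *Nanog* line lay 31, 42 with the replicate block, 20 with EC combinations only, 19 with the reduced major axis line and 20 to 33 with 1 replicate left out, the lowest without *Nanog* replicate 3. Deviations of same-numbered replicates from their means correlated with R = 0.219, 0.143 and 0.047 for *Lefty1* and *Otx2*. For *Tbx3* and *Nanog* R was 0.050, 0.222 and 0.154, and among their replicates of different numbers it reached 0.059. Most of the values for same-numbered replicates are as large as those of *Sox2* and *Klf2*, and the lowest of each pair is smaller. The main tests did not pair the replicates, and the replicate block is the paired version. Of the 12 enhancers, Lefty1_E093 lost its call on the *Lefty1* line without *Lefty1* replicate 1, without *Otx2* replicate 3 and with robust empirical Bayes. On the *Tbx3* line it gained one with the replicate block (limma adjusted p = 0.000483) and without *Tbx3* replicate 3, and with 1 replicate left out its residual was -0.0028 (without *Tbx3* replicate 1) to 0.55. In the replicate block of that line limma used a single variance for all enhancers. That adjusted p therefore does not reflect the spread of Lefty1_E093 itself. Nodal_E162 lost its call on the *Tbx3* line in 5 of 12 settings, with adjusted p up to 0.219, and Sox2_E179 and Lefty1_E095 with EC combinations only. All other calls of the 12 remained. Barcode numbers were not used here, so weak combinations could not be weighted by depth.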
